A study of Mus musculus with 6 samples.

Results

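miR-146a, miR-146b, miR-155 and miR-147 are small RNAs whose levels climb in cells that meet microbial products, cytokines or injury. Their assays were taken by name from a PCR table of 768 wells, of which 750 held miRNA assays. After species prefix, assay number, strand suffix and letter case were set aside, 5 wells carried one of these 4 names: mmu-miR-146a, mmu-miR-146b, mmu-miR-147 and mmu-miR-155 on the first of 2 cards, and rno-miR-146B, an assay listed under a rat name, on the second. All 5 amplified in every sample and all 5 were tested. The samples were lungs of mouse pups at day 7 of life. A group of 3 samples came from pups that breathed 95% oxygen for 168 h from shortly after birth (hyperoxia), and the other 3 samples from pups kept in room air, the control. Nursing dams were exchanged between the chambers daily, and the vessels of the lung were flushed with buffer before the right lung was frozen. The sources used here do not give strain or sex, and nothing in the labels says whether the samples came from separate animals or litters. The p-values set the difference between groups against the scatter of these 6 samples within groups, and part of that scatter may be technical. Whether they extend to other pups or litters therefore cannot be told.

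A microRNA (miRNA) is a short RNA that loads into an Argonaute protein and silences messenger RNAs that pair with its seed, bases 2 to 8 from the 5′ end. miR-146a is switched on by NF-kB and represses Traf6 and Irak1, which act in Toll-like receptor signalling. It therefore acts as a brake on the same pathway, and miR-146b has the same seed. miR-155, processed from the Bic transcript, climbs in activated macrophages and lymphocytes and represses Socs1 and Inpp5d, inhibitors of cytokine signalling. miR-147 is induced in mouse macrophages by Toll-like receptor ligands and dampens their cytokine output. In lung, alveolar macrophages and recruited leukocytes make these miRNAs, and epithelium and endothelium can as well.

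The mature sequences are shown because miR-146a and miR-146b are near copies that must be told apart by their assays. They were taken from RefSeq (GRCm38.p6), written 5′ to 3′ with the seed in capitals. The unmarked assay names stand for the dominant strand, the 5p strand for miR-146a, miR-146b and miR-155.
mmu-miR-146a-5p: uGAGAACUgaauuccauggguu
mmu-miR-146b-5p: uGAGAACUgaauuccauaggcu
mmu-miR-155-5p: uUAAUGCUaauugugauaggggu
The 2 miR-146 sequences matched at 20 of 22 positions and differed by G18A and U21C, with miR-146a first and positions counted from the 5′ end. They were the only mature miRNAs of that table with the seed GAGAACU, and miR-155-5p was alone with the seed UAAUGCU. miR-146a-5p lies on chromosome 11 at 43374435 to 43374456 (minus strand), and no other gene of the annotation spans its hairpin. miR-146b-5p lies on chromosome 19 at 46342790 to 46342811 (plus strand), inside the noncoding gene Gm36493. miR-155-5p lies on chromosome 16 at 84714143 to 84714165 (plus strand), inside Mir155hg, the annotated name of Bic.

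For miR-147 the hairpin is shown. It lies on chromosome 2 at 122640803 to 122640881 (plus strand), inside the span of the protein-coding gene AA467197, also listed as Nmes1.
Mir147 hairpin: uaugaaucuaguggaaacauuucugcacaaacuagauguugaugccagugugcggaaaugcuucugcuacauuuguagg

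The table gives a threshold cycle (Ct) per well, the number of PCR cycles needed to reach a set fluorescence. A lower Ct means more RNA, and a difference of 1 cycle is a doubling at full efficiency. A Ct of 35 or more was treated as not detected. Log2 relative abundance is the mean Ct of the miRNAs detected in every sample of the card minus the Ct of the well, so a higher value means more RNA relative to the other miRNAs. On the first card 307 to 319 miRNAs per sample were detected. The 282 detected in every sample had a mean Ct of 22.03 to 22.60 in room air and 22.61 to 23.47 in hyperoxia. On the second card 308 of the 309 wells that amplified in both room air 1 and hyperoxia 2 held identical Ct values, against 0 of 312 on the first card. The second-card values of these samples were therefore left out of both, so the first card has 3 samples per group and the second card 2.

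No well of the 4 miRNAs passed the test between hyperoxia and room air. The 551 miRNA assays that could be tested were compared by limma with Benjamini-Hochberg adjustment over all of them, and 0 passed the adjusted threshold of 0.05, a background of 0%. Of the 5 wells, 4 had a log2 fold change above 0, miR-146b being counted on both cards, against 42.1% of all tested assays. Among them, 1 of the 4 first-card wells, miR-147, had groups that did not overlap, hyperoxia being higher, against 6.29% of first-card assays. The same well was the only one of the 5 with an unadjusted limma p under 0.05 on the higher side, against 3.63% of all assays on that side and 9.07% on either side. The plot of the wells in every sample shows these values on both scales.

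**Figure D1:**
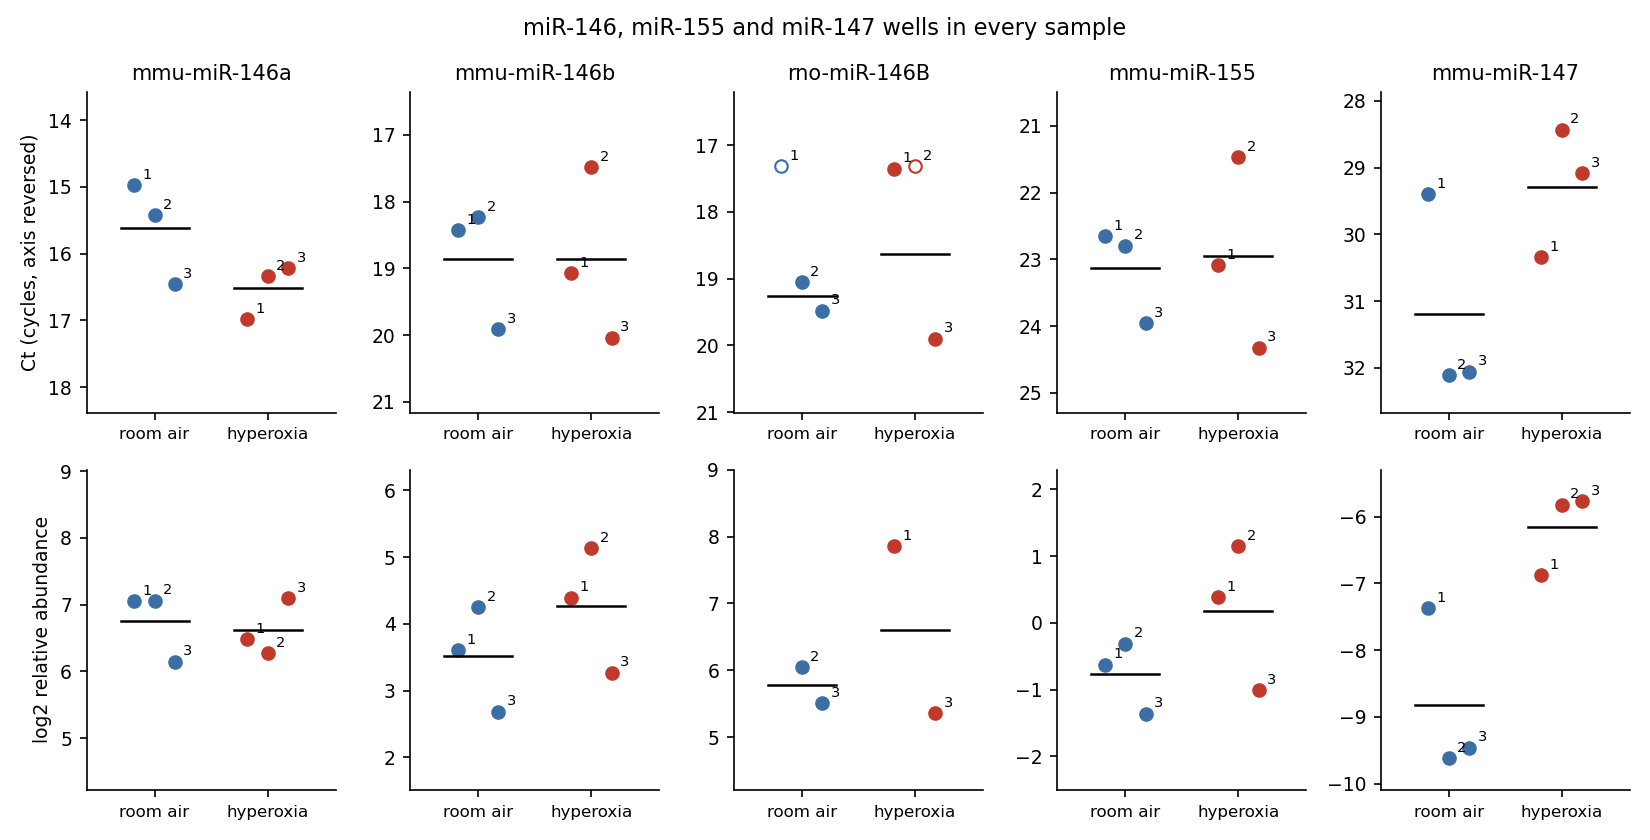
Ct (upper panels, axis reversed so that more RNA is up) and log2 relative abundance (lower panels) of the 5 wells in each sample, numbered by replicate, with black lines at group means of the values used. All panels of a row span the same number of cycles or log2 units. Open points are the shared second-card values left out, and miR-147 is the well whose groups separate on the log2 scale.

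miR-147 had the largest difference of the 5 wells and by far the latest Ct. Its Ct in room air samples 1 to 3 was 29.40, 32.10 and 32.06, and in hyperoxia samples 1 to 3 it was 30.34, 28.43 and 29.08. Values of the other wells follow the same sample order. On this raw scale the groups overlapped, because room air 1 was earlier than hyperoxia 1. Its log2 relative abundance was -7.37, -9.62 and -9.46 in room air against -6.87, -5.82 and -5.77 in hyperoxia. Here every hyperoxia sample lay above every room air sample, room air 1 and hyperoxia 1 being the closest. The log2 fold change was 2.66 ± 0.71 (SE, n = 3 per group), or 6.34-fold, with a 95% interval from 1.86-fold to 21.6-fold and a limma adjusted p of 0.373. It ranked 16 of 551 by p. The within-group SD of miR-147 was 0.99 on the log2 scale, at percentile 84.0 of the 282 first-card miRNAs detected in all samples, whose median was 0.42. Without room air 1 the log2 fold change was 3.39, and with room air 1 and hyperoxia 2 left out of both cards it was 3.21 (limma adjusted p of 0.178 and 0.414). The Ct of the room air samples 2 and 3 lay past 32, so under a Ct ceiling of 32 the well had too few values to be tested.

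miR-155 had a Ct of 22.65, 22.79 and 23.96 in room air against 23.08, 21.47 and 24.32 in hyperoxia. The earliest and the latest of the 6 values both belonged to hyperoxia. Its log2 relative abundance was -0.62, -0.31 and -1.36 in room air against 0.39, 1.15 and -1.01 in hyperoxia, so that hyperoxia 1 and 2 lay above all room air samples and hyperoxia 3 lay among them. The log2 fold change was 0.94 ± 0.63 (SE, n = 3 per group), or 1.92-fold with a 95% interval from 0.65-fold to 5.68-fold, and the limma adjusted p was 0.689. It depended on single samples, at 1.502 without hyperoxia 3 and 0.46 without hyperoxia 2.

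miR-146b was read by an assay on each card. The mouse assay had a Ct of 18.42, 18.24 and 19.91 in room air against 19.07, 17.48 and 20.04 in hyperoxia, with a mean of 18.86 in both groups. Its log2 relative abundance was 3.61, 4.25 and 2.69 in room air against 4.39, 5.13 and 3.27 in hyperoxia. As with miR-155, hyperoxia 1 and 2 were the highest samples and hyperoxia 3 lay within the room air range. The log2 fold change was 0.75 ± 0.63 (SE, n = 3 per group), or 1.68-fold with a 95% interval from 0.57-fold to 4.99-fold, and the limma adjusted p was 0.748. The value was 1.22 without hyperoxia 3, 0.33 without hyperoxia 2 and 0.33 without room air 3.

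The second-card assay rno-miR-146B had a Ct of 19.05 and 19.48 in room air 2 and 3, and of 17.35 and 19.90 in hyperoxia 1 and 3. Its log2 relative abundance was 6.05 and 5.51 in room air against 7.86 and 5.35 in hyperoxia, so the hyperoxia samples were the highest and the lowest of the 4. The log2 fold change was 0.83 ± 1.00 (SE, n = 2 per group), with a limma adjusted p of 0.829 and a 95% interval from 0.24-fold to 13.3-fold. The shared value was a Ct of 17.31. With it kept in room air the log2 fold change was 0.14, in hyperoxia 1.24, and in both 0.56. Over all 6 samples, the shared value included, the rat-named assay differed from the mouse assay of the first card by -1.72 to 0.82 cycles. Names on the second card are not secure, since 105 of 105 names that carry an assay number have that number listed 3 wells later. The well 3 places after rno-miR-146B, named hsa-miR-338-5P, had a Ct of 25.3 to 26.4 and a log2 fold change of 0.40 ± 0.57.

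The hairpin of miR-146b has a second mature strand, and mmu-miR-146b# on the second card was the only other-strand assay of the 4 hairpins. RefSeq gives the opposite strand on chromosome 19 at 46342828 to 46342849, and its seed differs from that of the 5p strand.
mmu-miR-146b-3p: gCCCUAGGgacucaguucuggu
Its Ct was 26.92 and 27.36 in room air 2 and 3, and 25.41 and 28.01 in hyperoxia 1 and 3. The order of the 4 samples by log2 relative abundance was that of rno-miR-146B, with hyperoxia 1 highest and hyperoxia 3 lowest. The log2 fold change was 0.62 ± 1.03 (SE, n = 2 per group, limma adjusted p = 0.871). The caution on second-card names holds for this well too, and for the second-card wells of the lists below.

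miR-146a was the earliest of the wells and showed the smallest difference. Its Ct was 14.98, 15.42 and 16.45 in room air against 16.98, 16.34 and 16.21 in hyperoxia, with means of 15.62 and 16.51, and 1 room air sample lay among the hyperoxia samples. Its log2 relative abundance was 7.05, 7.06 and 6.15 in room air against 6.49, 6.27 and 7.10 in hyperoxia, with the highest sample from hyperoxia and the lowest from room air. The log2 fold change was -0.13 ± 0.39 (SE, n = 3 per group), with a 95% interval from 0.47-fold to 1.78-fold and a limma adjusted p of 0.935. The sign was not stable. It was positive with quantile normalization (0.023) and without room air 1 (0.014), room air 2 (0.019) or hyperoxia 2 (0.049).

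Differences between wells of the same card within a sample need no reference RNA, and they are given here without a test. miR-146b and miR-155 kept a nearly constant distance, the Ct of miR-146b being 3.99 to 4.56 cycles earlier in all 6 samples. The distance between miR-146a and miR-155 varied more. miR-146a was earlier by 7.37 to 7.68 cycles in room air, by 6.10 in hyperoxia 1, by 5.13 in hyperoxia 2 and by 8.11 in hyperoxia 3, so hyperoxia 3 stood on the other side of room air from the other hyperoxia samples. Between miR-146a and miR-146b, which share a seed, the distance was 2.81 to 3.46 cycles in room air against 2.09, 1.14 and 3.83 cycles in hyperoxia. Between miR-146a and miR-147 it was 14.42 to 16.68 cycles in room air and 12.09 to 13.36 in hyperoxia, without overlap. The distance of miR-147 to miR-146b overlapped, at 10.98 to 13.87 cycles in room air and 9.04 to 11.26 in hyperoxia. So did that to miR-155, at 6.75 to 9.31 against 4.76 to 7.26 cycles. How many other pairs of wells lack overlap was not counted. Assay efficiencies are not known, so these distances compare samples and not the amounts of the miRNAs.

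The profiles over the 6 samples were compared with those of other miRNAs. Likeness was measured as the root mean square difference between log2 relative abundances, each centred on its own mean over the 6 samples, a smaller value meaning a more similar profile. Between wells of the same card this measure is the spread of their Ct distance, so for pairs of the 4 first-card wells it restates the distances above (0.20 for miR-146b and miR-155, against SDs over samples of 0.88 and 0.93, and 0.93 to 1.59 for the other 5 pairs). Against the 278 other first-card miRNAs detected in all samples, miR-155 was nearest to miR-223, a miRNA of myeloid cells (0.21), then to miR-676 and miR-132 (0.41 each). miR-146b was nearest to miR-676 (0.32), miR-223 (0.36) and miR-511 (0.55). miR-147 had no close neighbour. The nearest were miR-34a, which p53 induces (0.96), miR-682 (1.04) and miR-132 (1.18), against an SD of miR-147 itself of 1.71. miR-146a was nearest to miR-365 (0.13), miR-491 (0.15) and miR-194 (0.16), against an SD of its own of 0.43. Its within-group SD of 0.48 lay at percentile 55.7 of the same 282 miRNAs.

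**Figure D2:**
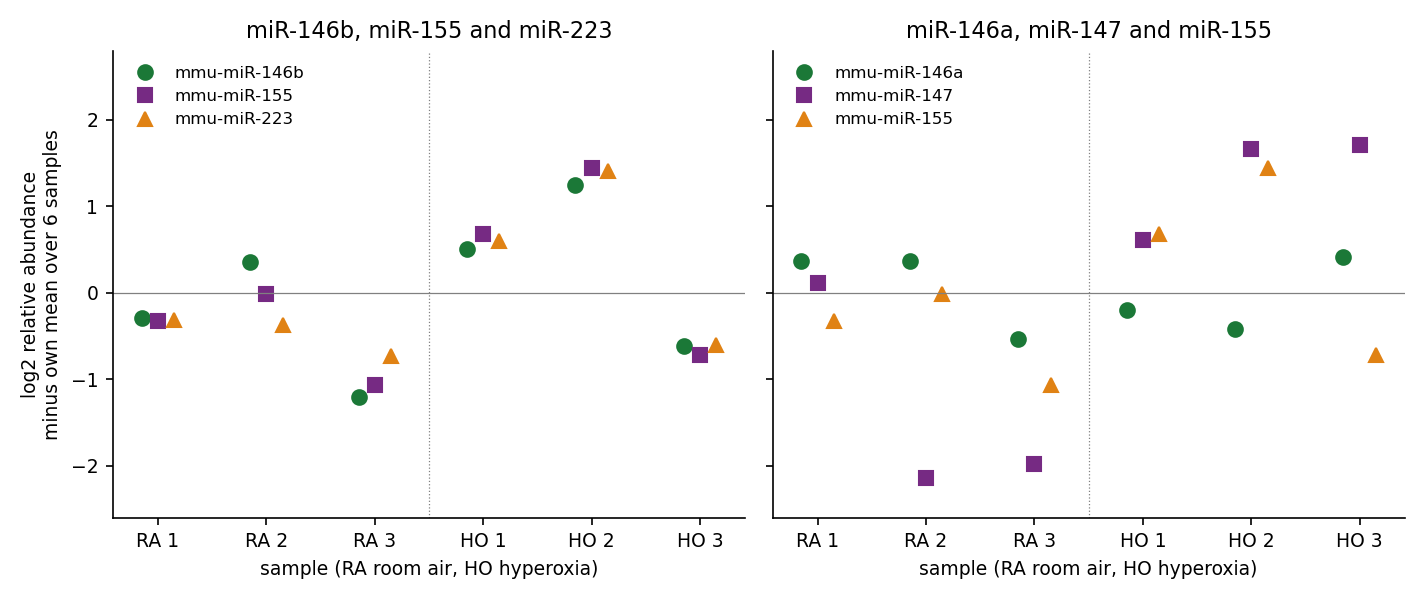
Log2 relative abundance of single wells in each sample, centred on the well's own mean over the 6 samples (RA room air, HO hyperoxia). In the left panel miR-146b, miR-155 and miR-223 are highest in hyperoxia 2 and low in room air 3 and hyperoxia 3, and in the right panel miR-147 is above its mean in hyperoxia 3, where miR-155 is below.

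The size of each difference depended on the reference. The median log2 fold change of all tested assays was -0.12 with the mean of the detected miRNAs as reference, -0.27 with the U6 wells in row A, and -0.62 with the small RNA controls or with no normalization. Under these 4 settings miR-147 was at 2.66, 2.34, 2.10 and 1.90, and its groups overlapped under the last 2. miR-155 was at 0.94, 0.61, 0.38 and 0.18, and miR-146b at 0.75, 0.43, 0.19 and -0.0077. miR-146a was at -0.13, -0.46, -0.70 and -0.90. Taken from the median of all assays in the same setting, miR-147 was at 2.52 to 2.78, miR-155 at 0.80 to 1.06, miR-146b at 0.61 to 0.87 and miR-146a at -0.28 to -0.02. None of the 5 wells passed under any of these settings. The authors' deposited table, which uses U6 as reference and carries no test, gives folds of 5.05 for miR-147, 1.53 for miR-155, 1.34 for miR-146b, 1.82 for rno-miR-146B and 0.73 for miR-146a.

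**Figure D3:**
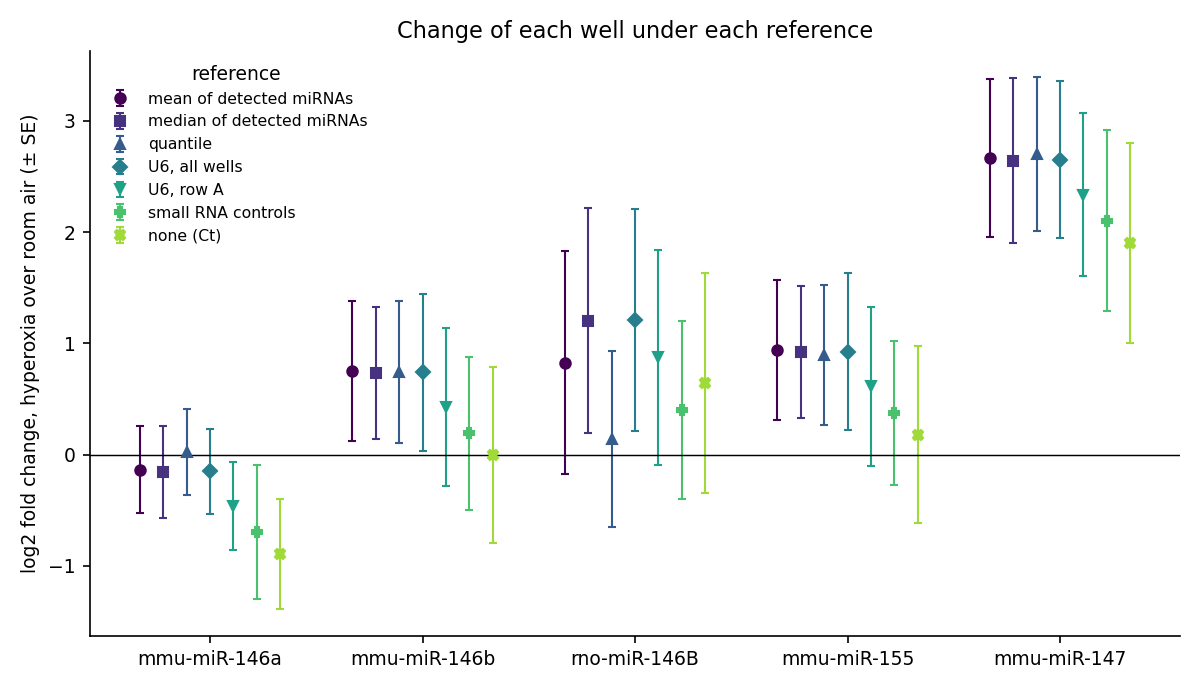
Log2 fold change of hyperoxia over room air ± SE (limma) for each well under 7 references. The 4 first-card wells move by the same amount from the mean of the detected miRNAs to no normalization, while rno-miR-146B, on the other card, runs from 0.14 with quantile normalization to 1.21 with U6. miR-147 stays above 0 under all of those drawn, and miR-146a is positive under quantile normalization alone.

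A list of miRNAs known to respond to innate immune stimuli was read beside the 4 miRNAs. It held 12 names, found in 13 wells, all tested, with miR-223 read on both cards. The list was chosen with earlier results of these data known. Its counts beside the shares of all assays are therefore a description and not a test. Of these wells 10 had a positive and 3 a negative log2 fold change (42.1% of all tested assays were positive), with a median of 0.72 against -0.12 over all tested assays, and 0 passed (limma adjusted p from 0.314 to 0.935). An unadjusted limma p under 0.05 was found in 3 wells, all higher in hyperoxia, against 3.63% of all assays on that side. Among the 11 first-card wells, 4 had hyperoxia above room air without overlap, against 6.29% of first-card assays. Over the other settings the median ran from -0.04 with no normalization, where 6 of the 13 were positive, to 0.89 without room air 1, and it was 0.09 without hyperoxia 1. miR-21, which is abundant in injured tissue, had a Ct of 17.48, 17.37 and 17.32 in room air against 16.45, 16.14 and 17.03 in hyperoxia, and it was earlier in all 3 hyperoxia samples even before normalization (log2 fold change 1.61 ± 0.33, adjusted p = 0.314). miR-132, which is induced through CREB and targets the p300 coactivator, was at 1.68 ± 0.56 (limma adjusted p = 0.456), with a Ct of 19.10, 19.40 and 20.12 in room air against 18.54, 17.37 and 19.96 in hyperoxia. miR-9, which targets the NF-kB subunit gene Nfkb1, was at 0.11 ± 0.31, and miR-125b-5p, reported to target Tnf, at 0.20 ± 0.24. The most negative of the list were miR-125a-5p at -0.91 ± 0.47 and miR-187 at -1.07 ± 0.52.

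Whole lung holds many cell types, so a miRNA can differ because its cells are more numerous or because each cell holds more of it, and these cannot be told apart here. The leukocyte markers, a list that shares miR-223 with the innate list, did not all lie on one side of 0. Of 6 wells for 5 names, 3 were positive and 3 negative, with a median of 0.28, and 0 passed (limma adjusted p from 0.333 to 0.985). Over the other settings this median ran from -0.48 with no normalization to 0.53 without hyperoxia 1, and it turned negative under several others, reaching -0.34 with quantile normalization, -0.28 with the small RNA controls and -0.20 without hyperoxia 3. miR-223 had a Ct of 17.44, 17.95 and 18.44 in room air against 17.97, 16.31 and 19.02 in hyperoxia, with a log2 fold change of 0.94 ± 0.55. miR-142-3p, a miRNA of blood cells, was at 0.60 ± 0.33, but miR-142-5p, from the same hairpin, was at -0.04 ± 0.56. miR-150, typical of mature lymphocytes, was at -1.09 ± 0.27 with all hyperoxia samples below room air. miR-342-3p was at -0.61 ± 0.43. Summed over the 5 first-card wells, the leukocyte markers had a log2 level of 6.81 to 7.33 in room air and 6.56 to 7.29 in hyperoxia, and no marker was at 0. The sum is weighted to the wells with the earliest Ct, in room air miR-150, and assay efficiencies are not known. It therefore does not measure leukocyte content. The part of cell content in the values of miR-155 and miR-146b was not tested.

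**Figure D4:**
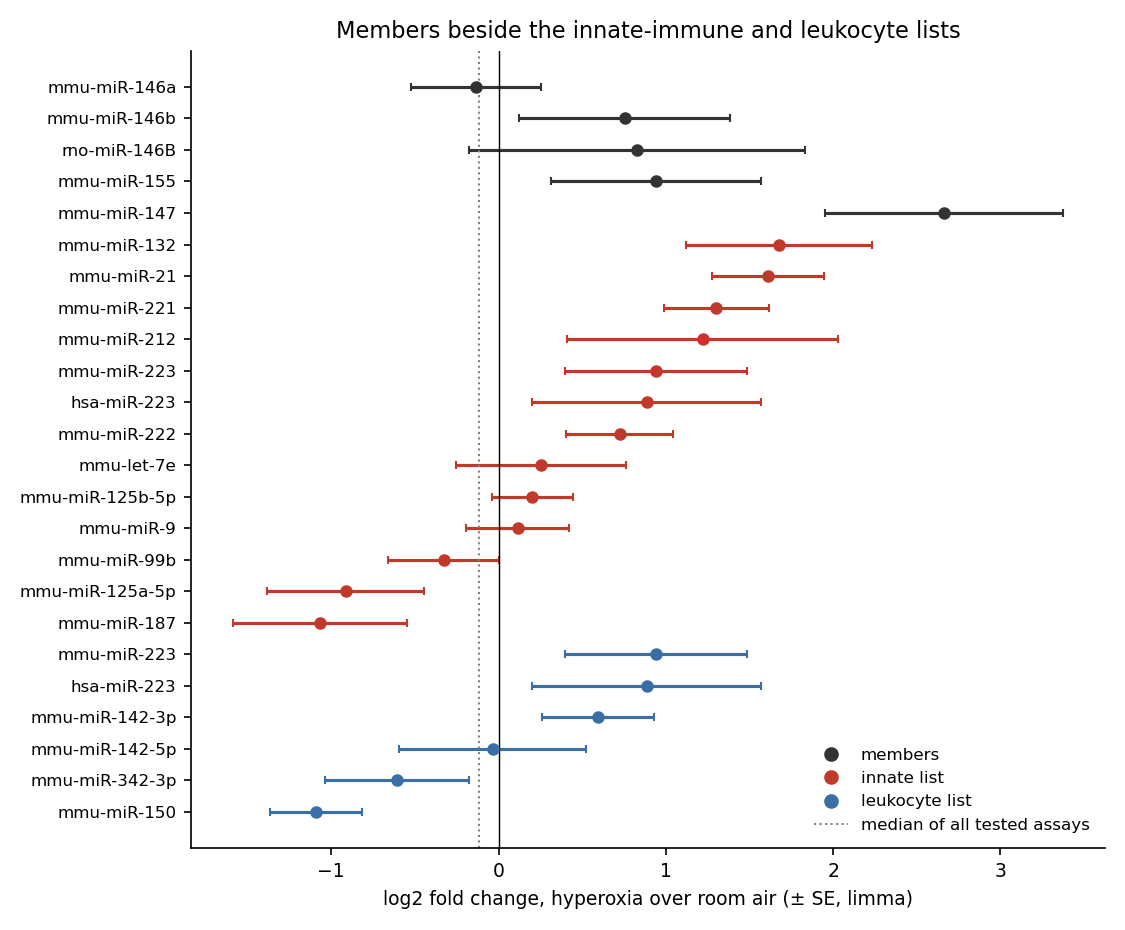
Log2 fold change of hyperoxia over room air ± SE (limma) of the 5 wells, the innate immune list and the leukocyte markers, with the median of all tested assays as a dotted line. miR-147 lies furthest right at 2.66, and the leukocyte markers fall on both sides of 0.

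The labelled tissue was checked with markers of other lung cells. The endothelial miR-126 strands, the 6 names of epithelial miRNAs, among them the miR-200 family, and the mesenchymal miRNAs such as miR-143 and miR-145 were all detected. None of their wells passed, with median log2 fold changes of -0.38, -0.07 and -0.03. Single endothelial wells ran from -0.61 to -0.14 and epithelial wells from -0.49 to 0.12. Mesenchymal wells ran from -0.68 for miR-145 to 0.56 for hsa-miR-214. The erythroid markers miR-451 and miR-486 had summed first-card log2 levels of 1.17 to 3.35 in room air and 1.39 to 4.11 in hyperoxia. Their log2 fold changes were 0.71 and 0.24, and the groups of both overlapped. The erythroid hsa-miR-144, on the second card and outside this sum, went the other way, with hyperoxia below room air without overlap. Its log2 fold change was -1.29 ± 0.32 (SE, n = 2 per group, limma adjusted p = 0.446). Striated muscle markers had summed log2 levels of 3.49 to 4.54 in room air and 2.32 to 3.54 in hyperoxia. The log2 level of the liver miRNA miR-122 was -4.30 to -2.64 in room air and -6.90 to -2.35 in hyperoxia. None of the wells of these last 3 lists passed either. The part of these cells in the results was not tested.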

How the data were processed

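MicroRNAs were measured by RT-PCR in 3 room air and 3 hyperoxia samples. RNA was copied into cDNA with Megaplex primers, sets A and B, and pre-amplified before the PCR, per the labels' protocols. The authors deposited Ct values, not normalized, with group means and a fold (a ratio of hyperoxia over room air). That fold, per the file headers 2 to the power of a Ct difference, was recomputed from the U6 wells of row A, first card: the difference matched for 764 of 764 assays within 0.01 cycles, a Ct of 40 entering as a value. The sources used here name no instrument, software or threshold. From the Ct values, log2 relative abundance was computed per card (282 and 249 reference miRNAs) and tested with limma 3.58.1 in R 4.3.3 (lmFit, eBayes, two-sided, at least 2 values per group, Benjamini-Hochberg over all 551 assays, prior degrees of freedom 1.62). The members and lists were chosen with earlier results of these data known. Named were all member wells, other-strand wells of their hairpins, the innate list and the 3 nearest profiles. The number of samples limits the precision. Besides the reported setting, 26 others were tried, and for rno-miR-146B also the well 3 places later.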

Additional observations from a re-analysis of the deposited data

How the results depend on the processing

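No member well passed the adjusted threshold under any alternative. miR-147 was positive in 25 of 25 (1.90 to 3.39) and miR-155 in 26 of 26 (0.18 to 1.502). rno-miR-146B was positive in 20 of 20 (0.14 to 1.49), and the well 3 places later was at 0.40. Some alternatives cannot move these estimates, so the counts are not counts of separate checks. Settings that change only the second card, the limma options, the number of values required and the replicate block left miR-147 at 2.66. The limma options and the number of values required left rno-miR-146B at 0.83. With 1 sample left out miR-147 was at 2.26 to 3.39, miR-155 at 0.46 to 1.502, miR-146b at 0.33 to 1.22 and miR-146a at -0.45 to 0.049 (0.014 without room air 1, 0.019 without room air 2, 0.049 without hyperoxia 2); rno-miR-146B was unmoved at 0.83 without room air 1 or hyperoxia 2, which give it no value, and could not be tested without any other sample. The sign turned for miR-146b with no normalization (-0.0077), and for miR-146a with quantile normalization (0.023) and, in a setting chosen after seeing the data, with room air 1 and hyperoxia 2 left out of both cards (0.18). The causes were not tested. Over all assays, 1 assay, no member, passed in place of 0 with a Ct ceiling of 32, with wells at a Ct of 40 kept as values, on the first card alone, with plate row G left out and with a limma trend; with 1 sample left out the count was 0 to 1. Same-numbered samples did not deviate together (correlations of -0.34, -0.23 and -0.18 over 282 assays). With so few samples, correlations over all assays cannot exclude that the numbers pair them. With the replicate block 0 of 301 assays passed, and the second card could not be fitted. There miR-147 had a limma adjusted p of 0.491, and miR-146b and miR-155 of 0.584. The block lowered the SE of miR-146b from 0.63 to 0.28 and of miR-155 from 0.63 to 0.36. It raised the SE of miR-147 from 0.71 to 0.83 and of miR-146a from 0.39 to 0.48. Among the member wells, miR-147 alone had Ct values near the detection limit.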
